A study of Mus musculus with 11 samples.

Results

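The genes described here encode 10 enzymes and carriers that make serine and pass its carbon into the folate and methionine cycles. They were taken by name from the 21957 genes of the count table and were Phgdh, Psat1, Psph, Shmt1, Shmt2, Mthfd1, Mthfd2, Mthfd1l, Mat2a and Slc25a32. All 10 had a row, matched through their Ensembl identifiers. The cells were primed mouse OT1 T cells, CD8 T cells whose transgenic receptor recognises an ovalbumin peptide. Stimulated cells had been given beads carrying antibodies against CD3 and CD28 for 2 h, unstimulated cells were the resting cells at T0, and both groups received cycloheximide, which stalls ribosomes, for 10 min. RNA was counted over coding sequences in 3 stimulated and 3 unstimulated libraries, and ribosome footprints, the mRNA fragments shielded by translating ribosomes, in 2 stimulated and 3 unstimulated libraries. Stimulated footprint replicate 1 was not analysed here. The labels give no strain, sex or age of the mice, and do not say whether replicates were separate cultures, so p-values measure only the spread between these samples.

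Serine is made from a glycolytic intermediate by Phgdh, Psat1 and Psph, acting in that order. Serine hydroxymethyltransferases then move a carbon from serine onto tetrahydrofolate, Shmt2 in mitochondria and Shmt1 in the cytosol. In mitochondria Mthfd2 oxidises that carbon and Mthfd1l releases it as formate. The formate leaves for the cytosol, where Mthfd1 returns it to folate for purine and thymidylate synthesis. Slc25a32 carries folate into mitochondria. Mat2a makes S-adenosylmethionine, the donor for RNA, DNA and histone methylation. In T cells the pathway is known for feeding nucleotide synthesis during proliferation after activation.

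The windows upstream of the 4 genes that the results turn on are shown because they carry the regulatory sequence nearest to the start of each gene. Mat2a and Shmt1 are shown for their RNA, and Psat1 and Shmt2 for their footprints. Each is the 250 bases before a RefSeq start on GRCm38.p6, read 5′ to 3′ on the minus strand, on which all 4 genes lie. The windows are chr6:72439557-72439806 for Mat2a, chr11:60811266-60811515 for Shmt1, chr19:15925060-15925309 for Psat1 and chr10:127522445-127522694 for Shmt2. Capitals mark CCAAT and GGGCGG on either strand, so that ATTGG and CCGCCC are in capitals too, and overlapping matches run together.
Mat2a: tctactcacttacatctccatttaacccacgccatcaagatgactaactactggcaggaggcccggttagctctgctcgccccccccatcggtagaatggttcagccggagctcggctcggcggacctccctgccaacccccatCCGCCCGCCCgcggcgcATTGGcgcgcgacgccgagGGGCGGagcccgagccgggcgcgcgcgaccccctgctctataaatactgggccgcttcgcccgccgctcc
Shmt1: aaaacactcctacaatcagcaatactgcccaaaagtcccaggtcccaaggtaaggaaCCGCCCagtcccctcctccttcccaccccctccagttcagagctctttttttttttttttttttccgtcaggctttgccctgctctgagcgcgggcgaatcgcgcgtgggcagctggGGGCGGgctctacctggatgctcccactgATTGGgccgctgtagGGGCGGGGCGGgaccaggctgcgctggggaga
Psat1: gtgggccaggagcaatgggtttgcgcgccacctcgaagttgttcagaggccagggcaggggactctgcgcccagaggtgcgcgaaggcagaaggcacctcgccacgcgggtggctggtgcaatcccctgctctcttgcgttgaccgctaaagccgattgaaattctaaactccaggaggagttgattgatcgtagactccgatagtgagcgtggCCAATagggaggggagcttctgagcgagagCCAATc
Shmt2: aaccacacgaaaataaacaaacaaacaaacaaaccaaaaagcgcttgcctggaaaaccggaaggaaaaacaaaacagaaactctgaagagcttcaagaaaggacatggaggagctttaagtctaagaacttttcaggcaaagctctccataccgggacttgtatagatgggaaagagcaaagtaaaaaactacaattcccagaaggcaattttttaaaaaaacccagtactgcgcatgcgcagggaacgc

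RefSeq windows were found for 9 of the 10 genes, all but Slc25a32. CCAAT, the core of the sequence bound by NF-Y, was present in the windows of 7 of these 9 genes (Phgdh, Psat1, Psph, Shmt1, Mthfd1, Mthfd2 and Mat2a) and in 33.8% of all 32851 windows of the same length. GGGCGG, the GC box bound by Sp1, was present for 6 of 9 (Psat1, Psph, Shmt1, Mthfd1, Mthfd1l and Mat2a) and in 32.7% of all windows. For Psat1, which has a second RefSeq start, the GC box lies in the other window. A gene was counted if any of its windows held the motif, while the percentages are of single windows. TGATGNAA, the amino acid response element bound by ATF4 with a partner, was in 0 of 9 and in 3.45% of all windows. CACGTG, the E-box bound by Myc, was in 0 of 9 and in 6.02% of all windows. The Shmt2 window held none of the 4 motifs. A match is only a match of letters, and its absence concerns these 250 bases.

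RNA library totals were 21658263 to 28115983 counts in stimulated and 29279903 to 39346699 in unstimulated cells. Footprint totals were 20848 and 23641 in stimulated and 11136 to 15237 in unstimulated cells. Genes Gm10800, Gm10801, Gm20594 and Lars2 together took 12.8 to 25.01% of RNA counts in stimulated and 4.09 to 14.9% in unstimulated libraries, the 14.9% being unstimulated replicate 2, which stood apart from the other two. RNA counts are given as CPM, counts scaled to library size, here with edgeR's TMM factors. These factors were 1.05, 0.968 and 0.830 in stimulated replicates 1 to 3, where the 4 genes took 25.01, 22.5 and 12.8%. Levels are divided by them, so they did not offset these shares. The sum of the 10 genes spread further between stimulated libraries than by library total. Levels are therefore also given under a scaling built on the 8494 genes of at least 10 CPM. T cell identity was checked with 8 markers, all detected, whose RNA summed to 2244 to 2815 CPM by library total in stimulated and 2912 to 3388 CPM in unstimulated cells. Cd8a had 624 ± 163 CPM in stimulated and 629 ± 58.4 CPM in unstimulated cells, and Cd4 2.49 ± 0.459 and 1.36 ± 0.924 CPM, both TMM-scaled. The 15 markers of B, myeloid, NK and red cells together made 12.1 to 26.8 CPM of RNA in stimulated and 8.63 to 20.6 in unstimulated cells. In footprints 14 of these 15 were at 0 in every library. The 3 CD4 T cell markers made 19.8 to 22.7 CPM in stimulated and 12.6 to 12.8 in unstimulated cells, of which Cd40lg, which activated T cells express, had 17.6 ± 3.42 and 8.34 ± 1.38 TMM-scaled CPM. Their part in the results was not tested.

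In RNA, 3 of the 10 genes rose on stimulation and 0 fell at an adjusted p under 0.05 (edgeR quasi-likelihood F test, Benjamini-Hochberg over all 18886 genes tested). Of all genes tested, 8.26% passed, 3.58% as higher and 4.68% as lower. The genes that rose were Mat2a, the mitochondrial folate carrier gene Slc25a32 and the cytosolic Shmt1. None of the 3 serine synthesis genes and none of the 4 mitochondrial or cytosolic genes Shmt2, Mthfd2, Mthfd1l and Mthfd1 passed. The median log2 change over the 10 genes was 0.21, beside 0.39 over all genes tested and -0.09 over the genes of at least 10 CPM, to which all 10 belong. In bulk samples such as these, a change in the share of cells that express a gene and a change in RNA per cell cannot be told apart.

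Mat2a (chromosome 6, 72432796 to 72439556) had 263, 323 and 425 CPM in stimulated replicates 1 to 3, against 169.5, 148 and 160 CPM in unstimulated replicates 1 to 3. The lowest stimulated library stood above the highest unstimulated one. The mean was 337 ± 82.3 CPM in stimulated and 159 ± 10.8 CPM in unstimulated cells (SD, n = 3 each), a 2.12-fold rise with a log2 change of 1.08 ± 0.21 (SE, adjusted p = 0.0097). That change exceeded those of 97.6% of the genes of at least 10 CPM.

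Slc25a32 (chromosome 15, 39091230 to 39112720) had 58.6, 63.3 and 89.0 CPM in stimulated cells, against 39.3, 35.6 and 37.9 CPM in unstimulated cells. Its groups did not overlap, and its log2 change was 0.90 ± 0.19 (1.87-fold, adjusted p = 0.0119). Shmt1 (chromosome 11, 60788897 to 60811265) had 87.1, 103 and 145 CPM in stimulated cells, against 68.7, 57.5 and 67.9 CPM in unstimulated cells. Its groups did not overlap either, and it rose 1.73-fold (log2 change 0.79 ± 0.21, adjusted p = 0.0390). Mat2a, Slc25a32 and Shmt1 were the only genes of the 10 whose groups did not overlap on this scale, where 15.4% of all genes tested lay wholly higher and 13.6% wholly lower in stimulated cells. Among genes of at least 10 CPM these shares were 16.2 and 24.4%.

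The adjusted p-values of these genes moved with which libraries were fitted. All 3 calls were lost without stimulated replicate 1 (adjusted p = 0.0521 for Mat2a, 0.111 for Slc25a32 and 0.240 for Shmt1), without stimulated replicate 2 (0.141, 0.157 and 0.318, in that order) and without unstimulated replicate 3 (0.103, 0.124 and 0.275). Shmt1 was also lost without unstimulated replicate 1 (adjusted p = 0.103). Log2 changes in these 3 fits were 0.93 to 1.03 for Mat2a, 0.80 to 0.83 for Slc25a32 and 0.65 to 0.73 for Shmt1. Without unstimulated replicate 2, the library that stood apart, all 3 passed with smaller log2 changes of 0.76 for Mat2a, 0.59 for Slc25a32 and 0.43 for Shmt1. In that fit Mthfd1l (-0.53, adjusted p = 4.7e-04), Phgdh (-0.33, adjusted p = 0.0149) and Psph (-0.22, adjusted p = 0.0408) passed as lower, and Mthfd1l did so without stimulated replicate 3 (-0.41, adjusted p = 0.0281). Passing was common in these fits. Of all genes, 6851 passed as higher and 6173 as lower without unstimulated replicate 2. Without stimulated replicate 3 they were 984 and 4271, beside 677 and 883 with all libraries.

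**Figure D1:**
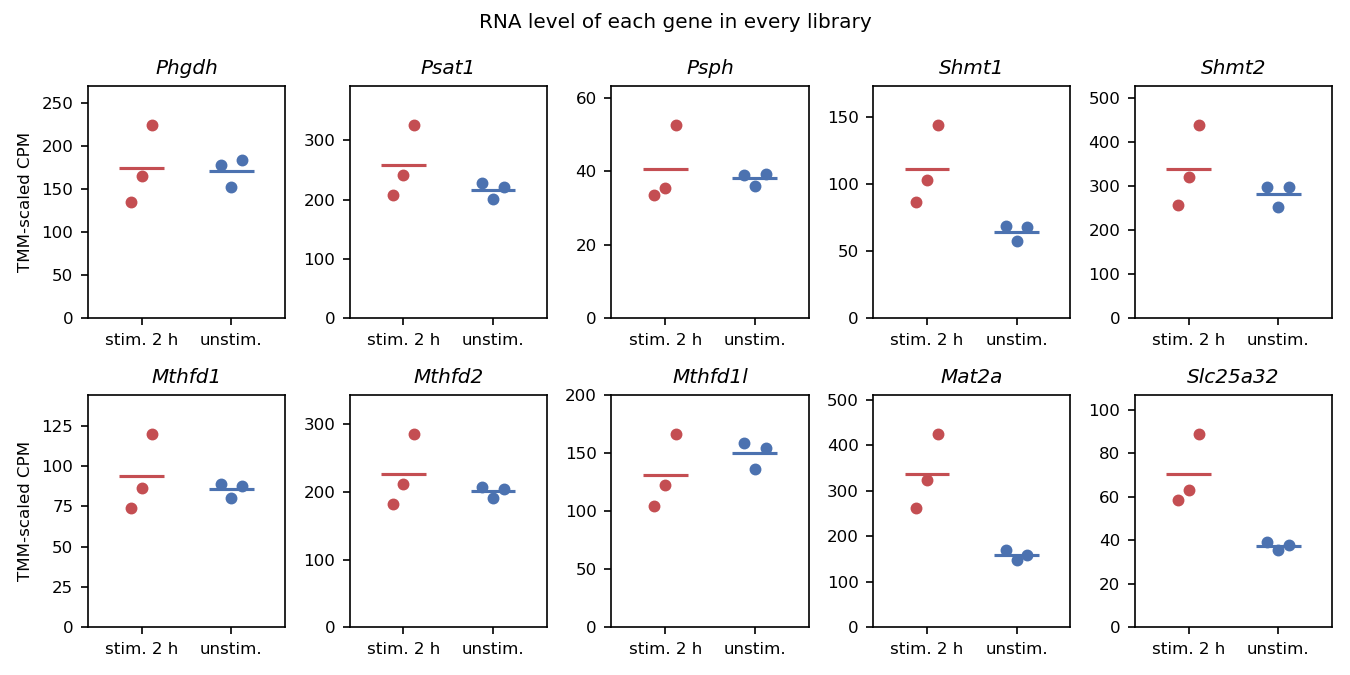
RNA level of the 10 genes in TMM-scaled CPM (vertical axis, from 0), with 1 point for each library, stimulated on the left and unstimulated on the right, and a bar at the group mean. Mat2a, Slc25a32 and Shmt1 are the genes whose points do not overlap between groups; for all 10 the highest stimulated point is replicate 3.

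The serine synthesis genes lay within the spread of their libraries on this scale. Phgdh (chromosome 3, 98313171 to 98339969), the first enzyme, had 135, 165 and 225 CPM in stimulated cells, against 178, 152 and 185 CPM in unstimulated cells. Psat1 (chromosome 19, 15905123 to 15925059), the second enzyme, had 208, 241 and 326 CPM in stimulated cells, against 228, 200.2 and 222 CPM in unstimulated cells. Psph (chromosome 5, 129765558 to 129787443), the last enzyme, had 33.7, 35.6 and 52.7 CPM in stimulated cells, against 39.02, 36.0 and 39.4 CPM in unstimulated cells. The stimulated libraries thus lay on both sides of the unstimulated ones for Phgdh and Psph, and all but the lowest lay above them for Psat1. Log2 changes were 0.03 ± 0.21 for Phgdh, 0.25 ± 0.21 for Psat1 and 0.09 ± 0.19 for Psph, with adjusted p = 0.928, 0.407 and 0.720 in that order. Psph overlaps Cct6a, a chaperonin subunit gene with 331 ± 75.7 CPM in stimulated and 225 ± 19.2 CPM in unstimulated cells. The sources used here do not say whether reads were counted by strand, so the Psph values are uncertain.

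Among the folate enzymes, Shmt2 (chromosome 10, 127517123 to 127522444) had 257, 321 and 439.5 CPM in stimulated cells, against 298, 253 and 298 CPM in unstimulated cells (log2 change 0.26 ± 0.22, adjusted p = 0.422). Mthfd2 (chromosome 6, 83305704 to 83326011), the mitochondrial dehydrogenase, averaged 227 ± 53.3 CPM in stimulated and 201 ± 8.61 CPM in unstimulated cells (0.17 ± 0.20, adjusted p = 0.539). Mthfd1 (chromosome 12, 76254406 to 76319820), the cytosolic enzyme of 3 activities, averaged 93.5 ± 23.8 CPM in stimulated and 85.6 ± 4.65 CPM in unstimulated cells (0.13 ± 0.20, adjusted p = 0.643). Their stimulated and unstimulated libraries overlapped. Mthfd1l (chromosome 10, 3972892 to 4167081), which releases formate in mitochondria, was the single gene of the 10 with a negative value, with 105, 123 and 167 CPM in stimulated cells, against 159, 137 and 154 CPM in unstimulated cells (-0.19 ± 0.20, adjusted p = 0.505).

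For all 10 genes the stimulated level was lowest in replicate 1 and highest in replicate 3, which had the largest and the smallest share of the 4 abundant genes, 25.01 and 12.8% of counts. Under the scaling on genes of at least 10 CPM the libraries drew together. Mat2a then averaged 344 ± 19.6 CPM in stimulated and 153 ± 4.47 CPM in unstimulated cells, and Shmt2 345 ± 27.2 and 271 ± 12.6 CPM. Of the 8494 genes tested in this way, 36.9% passed as higher and 36.4% as lower. Of the 10 genes 8 passed as higher and 1, Mthfd1l, as lower (log2 change -0.10 ± 0.04, adjusted p = 0.0487), while Phgdh did not pass (0.11 ± 0.06, adjusted p = 0.0922). The 9 of 10 that passed in either direction stand beside 73.3% of all genes tested in this way, a share under which passing is common. The sizes remained ordered, with Mat2a at 1.17 ± 0.05, Slc25a32 at 0.99 ± 0.04 and Shmt1 at 0.87 ± 0.05, and the 5 smaller rises between 0.18 ± 0.05 for Psph and 0.35 ± 0.06 for Shmt2.

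Choice of scaling moved every gene by a common amount, since the median log2 change of genes of at least 10 CPM was -0.09 under TMM, -0.32 under RLE, -0.27 with library totals and 0.00 with the scaling on these genes. Taken relative to that median, values were nearly the same under all 4. Mat2a stood 1.17 above it, Slc25a32 0.99, and Shmt1 0.87 to 0.88. Shmt2 stood 0.34 to 0.35 above it, Psat1 0.34, Mthfd2 0.26, Mthfd1 0.21 to 0.22, Psph 0.18 and Phgdh 0.11 to 0.12, and Mthfd1l stood at -0.11 to -0.10. Without that reference, the sign of Phgdh, Psph, Mthfd1 and Mthfd2 turned between scalings (-0.21, -0.14, -0.10 and -0.05 under RLE).

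**Figure D2:**
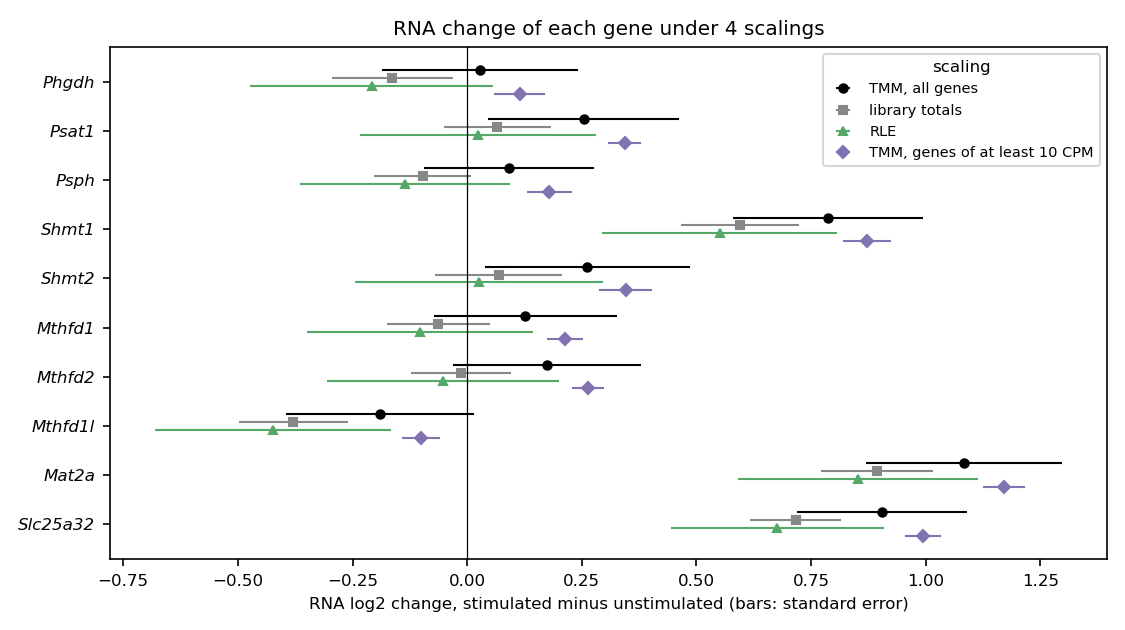
RNA log2 change, stimulated minus unstimulated (horizontal axis), of each gene under 4 scalings marked by shape and colour, with bars for the standard error. The points of a gene shift together, and Mat2a, Slc25a32 and Shmt1 stay right of 0 throughout, while Phgdh, Psph, Mthfd1 and Mthfd2 cross it.

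Ratios within a library do not depend on the scaling between libraries. They are ratios of raw counts, so only their difference between groups is read, and they are given without a test. How many other gene pairs differ between groups in this way was not computed. Under the scaling on genes of at least 10 CPM 73.3% of genes passed. Ratios that do not overlap are therefore not read as particular to these pairs. The ratio of mitochondrial Shmt2 to cytosolic Shmt1 was 2.95, 3.10 and 3.04 in stimulated cells, against 4.33, 4.40 and 4.38 in unstimulated cells. The groups lay well apart, and the stimulated mean was 0.693 of the unstimulated mean. Mthfd1l to Mthfd1, also a mitochondrial to cytosolic pair, did not overlap between groups and was 1.41 ± 0.0148 in stimulated and 1.75 ± 0.0457 in unstimulated cells (SD, n = 3 each). Mthfd2 to Mthfd1 was 2.44 ± 0.0448 in stimulated and 2.35 ± 0.0280 in unstimulated cells, a ratio of means of 1.04, with the nearest libraries at 2.385 and 2.381.

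A further 3 ratios were chosen after their values were seen. Mat2a to Mat2b, the catalytic and regulatory subunits of the same enzyme, was 4.15, 4.72 and 4.60 in stimulated cells, against 1.67, 1.61 and 1.62 in unstimulated cells, 2.75-fold higher in stimulated cells. Psat1 to Phgdh was 1.48 ± 0.0481 in stimulated and 1.26 ± 0.0581 in unstimulated cells. Psph to Phgdh was 0.233 ± 0.0166 in stimulated and 0.223 ± 0.0119 in unstimulated cells, within the spread of the libraries.

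**Figure D3:**
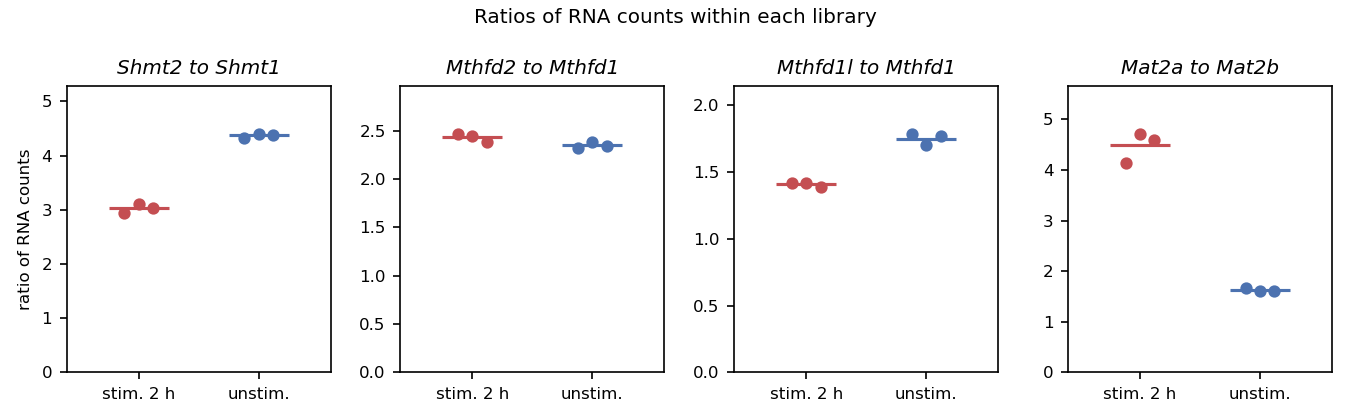
Ratio of RNA counts of pairs of genes within each library (vertical axis, no unit, from 0), with 1 point for each of the 3 stimulated libraries on the left and 3 unstimulated libraries on the right, and a bar at the mean. Shmt2 to Shmt1 and Mthfd1l to Mthfd1 are lower and Mat2a to Mat2b is higher in all 3 stimulated libraries, and Mthfd2 to Mthfd1 is nearly level.

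As a share of the summed counts of the 10 genes, Mat2a made up 18.9 ± 0.336% in stimulated and 11.3 ± 0.284% in unstimulated libraries. Slc25a32 made up 3.96 ± 0.198% in stimulated and 2.67 ± 0.0758% in unstimulated libraries, and Shmt1 6.25 ± 0.0926 and 4.59 ± 0.121%. The shares of the other 7 genes were lower in stimulated libraries, as they must in part be when the sum is fixed, with Mthfd1l at 7.38 ± 0.0769% in stimulated and 10.7 ± 0.116% in unstimulated libraries and Phgdh at 9.80 ± 0.136 and 12.2 ± 0.449%. The sum of the 10 genes was 1675 CPM by library total over the stimulated RNA libraries and 1507 over the unstimulated ones, and the libraries overlapped, at 1469, 1619 and 1888 CPM in stimulated and 1587, 1334 and 1557 CPM in unstimulated cells. Mat2a overlaps Ggcx, which had only 8.27 ± 1.34 CPM in stimulated and 10.6 ± 0.161 CPM in unstimulated cells, and Shmt2 overlaps Ndufa4l2, at 1.21 ± 0.442 and 1.91 ± 0.0614 CPM. The noncoding RNA Particl also overlaps Mat2a, and noncoding genes overlap Mthfd1 and Mthfd1l. Phgdh, Psat1, Shmt1, Mthfd2 and Slc25a32 had no overlapping gene in RefSeq.

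Among the footprints, Psat1 and Shmt2 had a higher level for library size in both stimulated libraries than in any unstimulated one, and the other 8 genes overlapped between groups. None of the 10 reached the filter of the footprint test, which asked for 656 CPM in at least 2 libraries and left 256 genes, of which 9.38% passed (5.86% as higher and 3.52% as lower). Counts are therefore given for every library, with exact 95% intervals that cover counting error only, and footprint CPM are by library total. A summed count of 0 is not a level of 0, as its exact interval reaches above 0. Of the 1373 genes with at least 15 footprints in all, 16.1% lay wholly higher and 9.47% wholly lower in stimulated libraries, so that genes like Psat1 and Shmt2 were not rare.

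Psat1 had 17 and 15 footprints in stimulated replicates 2 and 3, against 3, 2 and 5 in unstimulated replicates 1 to 3. Its level was 719 CPM (95% interval 492 to 1015) in stimulated and 244 (117 to 449) in unstimulated cells, a ratio of 2.95 (1.41 to 6.72). Shmt2 had 11 and 25 footprints in stimulated cells, against 3, 2 and 4 in unstimulated cells. Its level was 809 CPM (567 to 1120.3) in stimulated and 220 (101 to 417) in unstimulated cells, a ratio of 3.68 (1.74 to 8.69). On the log2 scale the Shmt2 ratio was 1.88, and 1.26 without stimulated replicate 3, its lowest value with 1 library left out. For Psat1 the log2 ratio was 1.56, and 1.25 to 1.89 with 1 library left out. The 2 stimulated Shmt2 values, 528 and 1057 CPM, differed by more than the Psat1 values of 815 and 634. The ratio of Psat1 exceeded that of 90.9% and the ratio of Shmt2 that of 93.7% of genes with at least 15 footprints, whose median ratio was 1.07.

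With no filter, edgeR gave a footprint log2 change of 1.77 ± 0.75 for Psat1 (unadjusted p = 0.0185) and 2.06 ± 0.74 for Shmt2 (unadjusted p = 0.0056), both with adjusted p = 0.763 over 10647 genes. Over the 1373 genes with at least 15 footprints, a limit chosen after the data were seen, the changes were 1.50 (adjusted p = 0.538) and 1.78 (adjusted p = 0.459). Neither gene passed in any fit that tested it. In these fits 2.33 and 8.45% of genes had an unadjusted p under 0.05, and 0.103 and 1.02% passed after adjustment.

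Mat2a, whose RNA rose, had 9 and 8 footprints in stimulated cells, against 3, 5 and 0 in unstimulated cells, a ratio of 1.96 (0.800 to 5.24) beside an RNA fold of 2.12. Its log2 footprint ratio of 0.97 became 0.30 without unstimulated replicate 3 and 1.75 without unstimulated replicate 2. Mthfd2 had 10 and 7 footprints in stimulated cells, against 6, 8 and 5 in unstimulated cells (0.823, 0.402 to 1.67). Shmt1, whose RNA also rose, had 2 and 0 footprints in stimulated cells, against 3, 1 and 4 in unstimulated cells (0.230, 0.0238 to 1.15). The Mat2a, Mthfd2 and Shmt1 intervals all held 1, so no difference was detectable at this depth.

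Mthfd1 had 1 and 6 footprints in stimulated cells, against 3, 2 and 4 in unstimulated cells, Mthfd1l 0 and 4 against 3, 2 and 2, and Psph 1 and 1 against 2, 0 and 2. Phgdh had 4 and 0 in stimulated cells and 0 in each unstimulated library, so that all its footprints came from 1 library. Its level was 89.9 CPM (24.5 to 230.2) in stimulated cells, which does not clear the upper limit of 90.1 CPM in unstimulated cells, so no fold is given. Slc25a32 had 0 and 0 footprints in stimulated cells and 0, 1 and 0 in unstimulated cells, too few for a fold. The 10 genes together had 121 of 44489 footprints in stimulated and 75 of 40944 in unstimulated libraries, 2720 and 1832 CPM. Without Psat1 and Shmt2, chosen for their values, the other 8 genes had 53 and 56 footprints, 1191 and 1368 CPM.

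**Figure D4:**
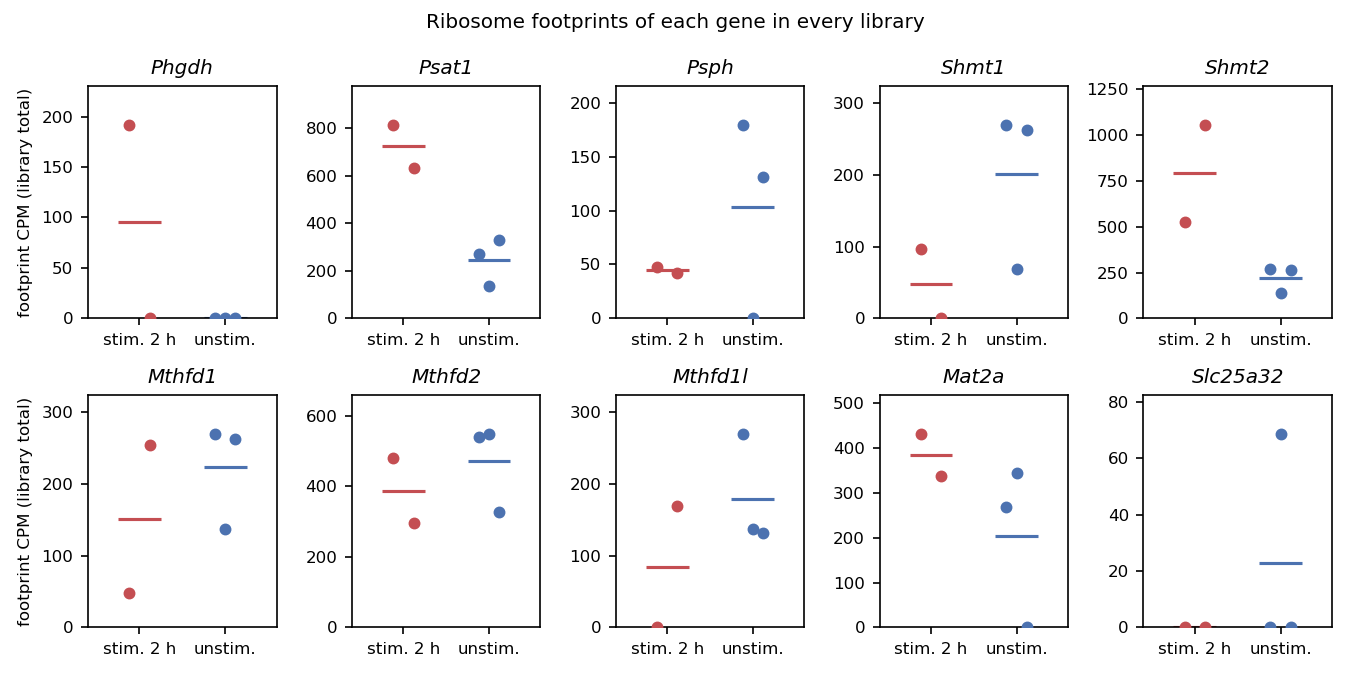
Ribosome footprints in CPM by library total (vertical axis, from 0) of each gene, with 1 point for each of the 2 stimulated libraries on the left and 3 unstimulated libraries on the right, and a bar at the mean. Psat1 and Shmt2 lie wholly higher in stimulated cells, while the other 8 genes rest on 0 to 10 counts a library.

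Translational efficiency, the ratio of footprints to RNA, was tested by whether the stimulation effect differed between the 2 assays. Of the 255 genes that passed the filter in both assays, 0% passed the test (edgeR, 0 genes, beside 28 at an unadjusted p under 0.05), and none of the 10 genes was among the 255. With DESeq2, run without that filter and so on many more genes, 29 genes passed, none of them among the 10. With no filter the efficiency log2 change was 1.70 ± 0.75 for Psat1 (unadjusted p = 0.0225) and 2.01 ± 0.74 for Shmt2 (unadjusted p = 0.0069), with adjusted p = 0.582 for both, and 7.06% of genes had an unadjusted p under 0.05. With at least 15 footprints the values were 1.27 ± 0.67 (adjusted p = 0.607) for Psat1 and 1.57 ± 0.67 (adjusted p = 0.459) for Shmt2, where 8.32% of genes had an unadjusted p under 0.05 and 0.146% passed after adjustment. The footprint ratio, by library total, was 2.47 times the TMM-scaled RNA fold for Psat1 and 3.07 times for Shmt2, and 0.923 times for Mat2a. It was 0.730 times for Mthfd2, 0.656 for Mthfd1, 0.6001 for Mthfd1l, 0.432 for Psph and 0.133 for Shmt1. These quotients set unlike scalings side by side, move with the scaling chosen for RNA and were given no interval. Without the filter, the efficiency log2 change of Shmt1 was -2.50 ± 1.31 on 10 footprints in all (unadjusted p = 0.0565, adjusted p = 0.582), and Phgdh, with 4 footprints, had an unadjusted p of 0.0473 (adjusted p = 0.582).

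**Figure D5:**
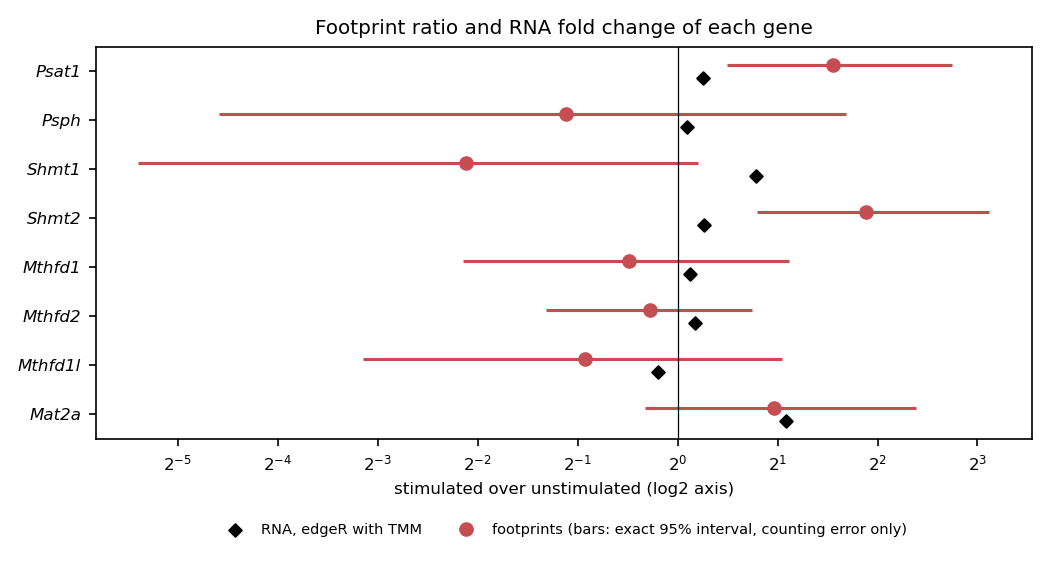
Stimulated over unstimulated ratio on a log2 axis for the 8 genes with footprints in both groups. Red points give the ratio of footprint CPM with exact 95% intervals for counting error, and black diamonds the edgeR RNA fold; the interval of Psat1 (1.41 to 6.72) and that of Shmt2 (1.74 to 8.69) lie right of 1, and the other 6 hold 1.

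Other genes of folate, serine and methyl metabolism were followed in RNA through 5 lists, whose counts stand beside 3.58% of all genes tested passing as higher and 4.68% as lower, and whose medians stand beside 0.39 over all genes tested and -0.09 over genes of at least 10 CPM. In the folate cycle and its carriers, 2 of the 13 genes reported rose. Slc19a1, the reduced folate carrier of the cell surface, had 65.9 ± 16.4 CPM in stimulated and 28.6 ± 2.53 CPM in unstimulated cells (log2 change 1.21 ± 0.20, adjusted p = 0.0038). Fpgs, which adds the glutamate tail that holds folate in the cell, rose by 0.79 (adjusted p = 0.0307).

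Of 14 genes for serine and glycine handling, 1 rose and 1 fell, with a median of 0.16. Gcsh, the carrier protein of the glycine cleavage system, rose (0.87 ± 0.16, adjusted p = 0.0070), and Sfxn3, a mitochondrial sideroflexin, fell (-0.60 ± 0.14, adjusted p = 0.0207). In the methionine cycle, 1 of 13 tested genes rose and 0 fell (median 0.14), the methionine salvage enzyme gene Mtap (0.84 ± 0.19, adjusted p = 0.0202). Mat2b, the partner of Mat2a, did not pass, at 74.8 ± 15.6 CPM in stimulated and 97.4 ± 4.85 CPM in unstimulated cells (-0.38 ± 0.19, adjusted p = 0.271). Under the scaling on genes of at least 10 CPM it passed as lower (-0.29 ± 0.03, adjusted p = 2.2e-05), as did 36.4% of genes.

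Purine and thymidylate synthesis, which the pathway supplies, held 15 tested genes with a median of 0.04, of which 0 rose and 1 fell. That was the thymidine kinase gene Tk1, at 61.2 ± 17.3 CPM in stimulated and 121 ± 10.7 CPM in unstimulated cells (-0.98 ± 0.21, adjusted p = 0.0155). Of 16 methyltransferase genes and regulators of Mat2a RNA, 4 rose and 0 fell (median 0.14). The DNA methyltransferase gene Dnmt3a (0.93 ± 0.20, adjusted p = 0.0140), the histone methyltransferase gene Setd2 (0.93 ± 0.18, adjusted p = 0.0102) and Amd1 (0.66 ± 0.17, adjusted p = 0.0313), which uses S-adenosylmethionine for polyamines, were 3 of them. The remaining one was Mettl16, which methylates Mat2a RNA and so controls its splicing, at 97.7 ± 20.9 CPM in stimulated and 58.0 ± 2.01 CPM in unstimulated cells (0.75 ± 0.19, adjusted p = 0.0282).

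Under the scaling on genes of at least 10 CPM, where 36.9% of genes passed as higher and 36.4% as lower, 4 of the 7 folate cycle genes reported passed as higher. The counts were 5 higher and 1 lower of 8 tested in serine and glycine handling. They were 4 and 2 of 8 in the methionine cycle, 6 and 3 of 14 in purine and thymidylate synthesis, and 10 and 2 of 16 among methyltransferases and Mat2a RNA regulators.

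Of the 2 regulators followed in every case, Myc, a transcription factor that drives growth in activated T cells, had 748 ± 171 CPM in stimulated and 211 ± 2.497 CPM in unstimulated cells (1.83 ± 0.22, adjusted p = 5.5e-04). Its footprints were 86 in stimulated and 45 in unstimulated libraries, a ratio of 1.76 (1.21 to 2.58, counting error only). In edgeR the footprint change of Myc did not pass with no filter (adjusted p = 0.763) or with at least 15 footprints (adjusted p = 0.538). Myc was also in the main footprint test, whose value for it is not given here. Atf4, a transcription factor known in other cells to drive the serine synthesis genes, had 480.4 ± 113 CPM in stimulated and 360 ± 23.8 CPM in unstimulated cells and did not pass (0.42 ± 0.21, adjusted p = 0.286). Its groups did not overlap on that scale. Under the scaling on genes of at least 10 CPM Atf4 passed as higher (0.51 ± 0.04, adjusted p = 1.3e-06), as did 36.9% of genes. Over the 15 alternative fits, Myc and Slc19a1 passed in every one. Tk1 was lost at an adjusted p of 0.01 and without stimulated replicate 1 (adjusted p = 0.0524). Fpgs, Sfxn3, Mtap, Dnmt3a, Setd2, Mettl16 and Amd1 were each lost without stimulated replicate 1 or 2 or unstimulated replicate 1 or 3, and Gcsh without stimulated replicate 1 or 2 or unstimulated replicate 3, with a highest adjusted p between 0.156 for Fpgs and 0.376 for Amd1. RLE scaling also ended the calls of Gcsh, Fpgs, Mtap, Dnmt3a, Setd2, Mettl16 and Amd1. DESeq2 ended those of Gcsh, Fpgs, Mtap, Dnmt3a, Mettl16 and Amd1, and no filter those of Fpgs, Mtap, Dnmt3a, Setd2, Mettl16 and Amd1. An adjusted p of 0.01 ended those of Fpgs, Sfxn3, Mtap, Dnmt3a, Setd2, Mettl16 and Amd1, as well as Tk1. Leaving out the 4 abundant genes ended those of Fpgs, Mtap, Mettl16 and Amd1. None of the list genes that had passed turned direction.

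The genes whose RNA ran most like that of Mat2a over the 6 RNA libraries, among 8493 others of at least 10 CPM, were Usp31, Cd69, Slc4a7, Stat5a and Skil, with Pearson's r of 0.99983 for Usp31 to 0.99937 for Skil on log2 CPM. Cd69 encodes an early activation antigen, and its log2 change of 0.99 was close to the 1.08 of Mat2a. For Shmt2, which had the most counts of the 10 genes over these libraries, they were Vps33b, Adrm1, Psmd5, Rapgef1 and Tmem115, with r of 0.99943 to 0.9987 and log2 changes of 0.17 to 0.25. Adrm1 encodes a ubiquitin receptor of the proteasome and Psmd5 a proteasome assembly chaperone. These points share their libraries and scaling, so r is a description of these 6 libraries.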

How the data were processed

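RNA and footprint libraries of primed OT1 cells were compared between stimulated and unstimulated groups. The authors deposited whole-number counts for each gene over coding sequences, without normalization. The submitters' processing notes name STAR 2.5 and the mm10 (GRCm38) genome. The counting tool, annotation release and strand setting are not given in the sources used here. Of 21957 identifiers, 21838 were matched to a RefSeq symbol and 119 were not. The 10 genes and the 5 lists were chosen with earlier results of these data known. One gene of the folate list is not reported here and is left out of that list's counts.

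Counts of all genes were fitted in R 4.3.3 by edgeR 4.0.16 (quasi-likelihood), for each assay alone and, for efficiency, as the interaction in 1 model over 11 libraries. TMM scaling and filterByExpr (minimum count 10, minimum total 15) were used, and p-values are two-sided and Benjamini-Hochberg adjusted, with a threshold of 0.05. Standard errors are the log2 change divided by the square root of F. Footprint intervals are exact Poisson for a level and exact conditional binomial (Clopper-Pearson) for a ratio, at 95%. RNA depth was 21658263 to 39346699 counts and footprint depth 11136 to 23641, so footprint counts of single genes are small. Named genes are the 10 genes, up to 6 genes of each list that passed, Atf4, Myc, and the 5 genes most like Mat2a and Shmt2 (by log2 CPM with a pseudocount of 0.5). Mat2b, Cd40lg and the overlapping genes were named outside that rule, after their values were seen.

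Alternatives were DESeq2 1.42.0, RLE scaling, library totals, scaling and testing on genes of at least 10 CPM, leaving out 4 abundant genes, no filter, a mean of at least 50 counts, an adjusted p of 0.01, the replicate block, leaving out single libraries and, chosen after seeing the data, at least 15 footprints. Levels per coding length were not computed, as no coding lengths were at hand, so levels of different genes are not compared and ratios are of raw counts.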

Additional observations from a re-analysis of the deposited data

How the results depend on the processing

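Mat2a, Slc25a32 and Shmt1 remained higher in stimulated RNA under all 15 alternatives. Of the 10 genes 3 passed in RNA. With DESeq2 1 passed (Mat2a), with RLE scaling 0, on genes of at least 10 CPM 9 and at an adjusted p of 0.01 1. Without single libraries 0 to 6 passed. The 6 came without unstimulated replicate 2, as 3 higher (Mat2a, Slc25a32 and Shmt1) and 3 lower (Phgdh, Psph and Mthfd1l). Of all genes tested, 8.26% passed in the main fit and 73.3% on genes of at least 10 CPM. Genes passing numbered 2912 with DESeq2, 1698 with RLE, 628 at an adjusted p of 0.01 and 583 to 13024 without single libraries. The counts of 9 and 6 thus come from fits in which passing was common. Mat2a missed the threshold under RLE (adjusted p = 0.0581), Slc25a32 under DESeq2 (0.0855) and RLE (0.0897), and Shmt1 under DESeq2 (0.203), RLE (0.200), no filter (0.140) and without the 4 abundant genes (0.101). Over all these fits adjusted p-values ran from 3.6e-08 to 0.141 for Mat2a, 4.1e-08 to 0.157 for Slc25a32 and 4.8e-07 to 0.318 for Shmt1.

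Small RNA log2 changes turned negative as follows; none of these had passed. With DESeq2 they were Phgdh -0.30, Psat1 -0.0715, Psph -0.23, Shmt2 -0.0686, Mthfd1 -0.20 and Mthfd2 -0.15. With RLE they were Phgdh -0.21, Psph -0.14, Mthfd1 -0.10 and Mthfd2 -0.0531, and with library totals -0.16, -0.0965, -0.0626 and -0.0133 in that order. Without the 4 abundant genes they were Phgdh -0.12, Psph -0.0419 and Mthfd1 -0.0086, and with no filter Phgdh -0.14, Psph -0.0671 and Mthfd1 -0.0337. Leaving out single libraries gave -0.33 to -0.0030 for Phgdh, -0.0733 to 0.25 for Psat1, -0.22 to 0.0632 for Psph, -0.0902 to 0.24 for Shmt2, -0.19 to 0.11 for Mthfd1 and -0.13 to 0.16 for Mthfd2. The common shift of the scaling is given with the RNA results; no other cause was tested.

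Over all genes, 1560 passed in RNA, against 2912 with DESeq2, 5220 with library totals, 6228 on genes of at least 10 CPM, 4932 at a mean of 50 counts, 628 at an adjusted p of 0.01 and 583 (without stimulated replicate 2) to 13024 (without unstimulated replicate 2) with 1 library left out. In footprints 24 passed, against 11 with no filter, 14 with at least 15 footprints and 12 to 30 with 1 library left out. For efficiency 0 passed, against 29 with DESeq2, 1 with RLE, 15 with library totals, 3 on genes of at least 10 CPM, 2 without the 4 abundant genes, 3 with no filter, 2 with at least 15 footprints and 0 to 24 with 1 library left out. None of the 10 genes passed in footprints or efficiency under any alternative. Only no filter and DESeq2 fitted all 10, and the fit with at least 15 footprints held 5. The other fits held 0 or 1 of the 10 genes, so they could not decide this. A mean of 50 counts left too few genes in footprints and efficiency to be run. Levels per coding length were not run.

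With replicate number as a block, 3 of the 10 genes passed in RNA as before, and 2404 genes in all. Same-numbered RNA libraries correlated at -0.415, 0.310 and 0.626 in their deviations, so the numbers were not taken to pair samples. Footprint depth limits any statement on genes with fewer than about 15 footprints.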
